A study of Homo sapiens with 9 samples.

Results

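The genes described here make, inactivate and sense prostaglandin E2 (PGE2). They are 10 genes listed by name, PLA2G4A, PTGS1, PTGS2, PTGES, PTGES2, PTGES3, HPGD, PTGR1, PTGER2 and PTGER4, out of 36753 Ensembl gene identifiers in the deposited files, and each of the 10 matched 1 identifier. The list was selected on the FPKM values of these same libraries, with the differences between the groups already known, so the members' values are a description and carry no p-value. PANC-1, a pancreatic cancer line of human origin, was sampled 48 hours after transfection in 9 libraries: 3 with siSIRT6 (SIRT6 knockdown), 3 with siKDM5C (KDM5C knockdown) and 3 with a control that the column headers call siNC. The sources used here give neither the sequences of the short interfering RNAs nor how many were used per target. SIRT6 encodes a nuclear NAD-dependent deacylase and KDM5C a demethylase of histone H3. All 3 groups share the same cell line and time, and nothing in the labels says that replicates were separate cultures, so p-values measure a spread that may be technical.

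Prostaglandins are short-lived lipid signals. A phospholipase frees arachidonic acid from membranes, a cyclooxygenase turns it into the unstable intermediate PGH2, and a terminal synthase isomerises PGH2 to PGE2, which leaves the cell and acts through G protein-coupled EP receptors on the same or neighbouring cells. A dehydrogenase and then a reductase inactivate it. In many carcinomas of the gut and pancreas the inducible cyclooxygenase PTGS2 and the inducible synthase PTGES are known as sources of PGE2, and cell lines differ widely in both.

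Of the 10 genes, 5 reached 1 FPKM in at least 3 libraries. Among these, PTGES, the inducible PGE2 synthase, stood at 27.2% of control after siSIRT6 and at 9.49% after siKDM5C, and PTGES2, a second membrane-associated synthase, at 74.7% and 46.9%. PTGER4, which encodes the EP4 receptor, stood at 192% and 151% of control. The cytosolic synthase PTGES3 and the reductase PTGR1 stood between 102% and 112% of control in both knockdowns. Transcripts of both cyclooxygenases, of PLA2G4A, of the dehydrogenase HPGD and of the EP2 receptor PTGER2 were at most 0.543 FPKM in any library. From these few reads, HPGD stood at 310% of control after siSIRT6, PTGS2 at 284%, PLA2G4A at 277%, PTGER2 at 203% and PTGS1 at 64.3%, and after siKDM5C the same genes stood at 158%, 174%, 76.3%, 151% and 103%. FPKM, fragments per kilobase of gene scaled to library depth, is a level per length, and a comparison between genes on it depends on the gene length used and on reads shared with copies.

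**Figure D1:**
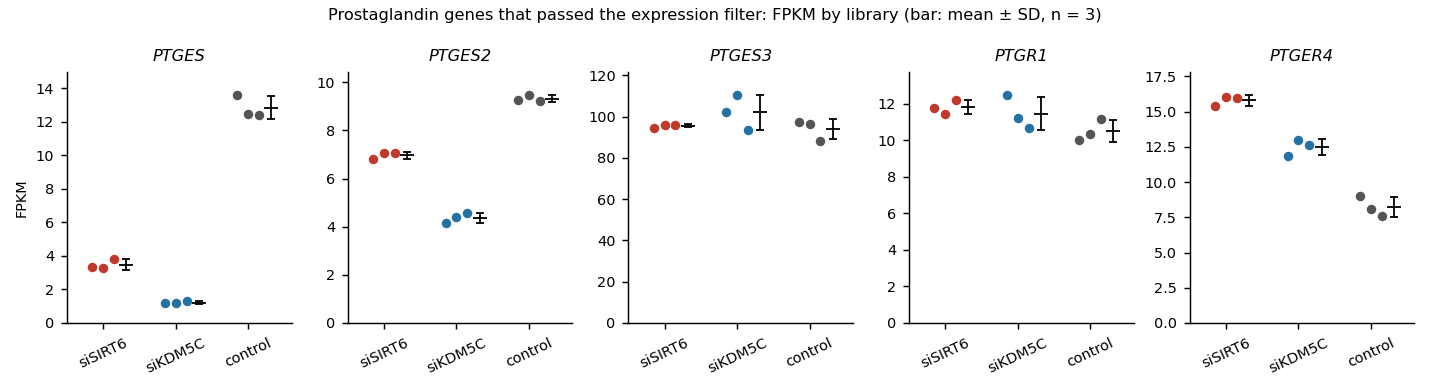
FPKM of PTGES, PTGES2, PTGES3, PTGR1 and PTGER4 in each library of siSIRT6, siKDM5C and control, with each y axis starting at 0, points for libraries and black bars for the mean ± SD (n = 3). PTGES sits near 3.48 FPKM after siSIRT6 and 1.22 FPKM after siKDM5C, against 12.8 FPKM in control, while PTGER4 is above control in both knockdowns.

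The upstream sequences of 4 members are shown, chosen after their values were seen, so the choice is no result about them. Among the members that reached 1 FPKM in at least 3 libraries, PTGES, PTGES2 and PTGER4 did not overlap control in either knockdown. PTGS2 is the classic inducible cyclooxygenase. Each run is the 250 bases before a RefSeq transcription start (GRCh38.p14), 5′ to 3′ on the gene's strand, at chr9:129753043-129753292 (minus strand) for PTGES, chr9:128128145-128128394 (minus strand, 1 of 3 listed starts) for PTGES2, chr5:40679665-40679914 (plus strand) for PTGER4 and chr1:186680424-186680673 (minus strand) for PTGS2. Capitals mark matches, on either strand, to the motifs named after the sequences.
PTGES: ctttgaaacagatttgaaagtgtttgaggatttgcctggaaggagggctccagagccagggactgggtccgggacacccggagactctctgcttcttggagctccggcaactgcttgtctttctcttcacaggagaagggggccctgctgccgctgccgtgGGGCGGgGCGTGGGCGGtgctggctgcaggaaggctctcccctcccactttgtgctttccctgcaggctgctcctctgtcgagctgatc
PTGES2: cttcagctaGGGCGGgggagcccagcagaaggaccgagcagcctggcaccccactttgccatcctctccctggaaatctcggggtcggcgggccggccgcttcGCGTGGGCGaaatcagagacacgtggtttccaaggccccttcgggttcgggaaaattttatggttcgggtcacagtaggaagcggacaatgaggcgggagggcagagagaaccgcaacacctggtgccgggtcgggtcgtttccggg
PTGER4: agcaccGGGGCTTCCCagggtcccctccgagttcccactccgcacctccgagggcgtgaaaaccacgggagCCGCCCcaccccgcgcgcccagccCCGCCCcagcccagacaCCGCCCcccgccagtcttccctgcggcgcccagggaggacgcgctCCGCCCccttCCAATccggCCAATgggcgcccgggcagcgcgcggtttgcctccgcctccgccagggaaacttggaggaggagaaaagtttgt
PTGS2: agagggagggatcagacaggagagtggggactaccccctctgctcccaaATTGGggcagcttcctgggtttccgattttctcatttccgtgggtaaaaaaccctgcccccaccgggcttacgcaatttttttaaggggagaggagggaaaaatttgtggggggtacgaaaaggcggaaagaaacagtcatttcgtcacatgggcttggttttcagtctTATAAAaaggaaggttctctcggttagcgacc

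The motifs searched were the GC box GGGCGG, the EGR1 motif GCGTGGGCG, the TATA box TATAAA, the CCAAT box CCAAT, the cyclic AMP response element TGACGTCA, the AP-1 motif TGANTCA and the NF-kB motif by its consensus. PTGES held 2 GC boxes, from -89 to -84 and from -78 to -73 counted from the start, and 1 EGR1 motif from -82 to -74, which overlaps the second GC box. The EGR1 motif was also found before 1 of the 3 starts of PTGES2, the one printed, whose window lies within the annotated gene. The window nearest the annotated 5′ end of PTGES2 (chr9:128128441-128128690) held 4 GC boxes and no EGR1 motif. The remaining window (chr9:128127730-128127979) held 1 GC box and no EGR1 motif. Of the 35116 windows of this length in the same table, 0.72% hold the EGR1 motif. PTGER4 held 4 GC boxes, 2 CCAAT boxes and 1 match to the NF-kB motif, which is in 5.21% of windows. In PTGS2 a TATA box from -32 to -27 (TATA boxes are in 10.7% of windows) and 1 CCAAT box were found and no GC box, which is in 42.6% of windows. These matches describe letters in the window and not sites in use. Only exact matches to each motif were counted, so a site that departs from its letters is missed, and no match does not mean no site. All 10 genes matched the table, with 14 starts in all, of which 10 held a GC box, 3 a CCAAT box (32% of windows) and 0 an AP-1 motif or cyclic AMP response element (in 6.57% and 1.65% of windows).

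The libraries held 18201413 to 26910441 reads in genes, recovered from the steps between low FPKM values, and siSIRT6 replicate 3 was the deepest. SIRT6 averaged 0.597 ± 0.172 FPKM after siSIRT6 and 6.18 ± 1 FPKM in control (SD, n = 3 each), and KDM5C averaged 3.61 ± 0.29 FPKM after siKDM5C and 18.4 ± 0.389 FPKM in control, so both targets were low where the labels place them. KRT8 and KRT18, keratins that mark epithelial cells, had at least 239.8 and 306.3 FPKM in every library. Of the 5 epithelial markers, KRT7, KRT8 and KRT18 were lower than control after siKDM5C, and KRT7 alone was lower after siSIRT6. KRT19 averaged 152.3 ± 15.6 FPKM after siKDM5C and 147.5 ± 3.58 FPKM in control. EPCAM was higher after siKDM5C, at 2.93 ± 0.521 FPKM, against 0.988 ± 0.157 FPKM in control. Nearly all of the sum of the 5 was KRT8, KRT18 and KRT19. The 5 summed to 1398 to 1513 FPKM after siSIRT6, 695.5 to 856.2 FPKM after siKDM5C and 1091 to 1143 FPKM in control. The leukocyte-defining gene PTPRC had at most 0.012 FPKM, and the 4 leukocyte markers with values, nearly all of it CD68, summed to 36.4 to 39.4, 72.8 to 93.7 and 44.1 to 58.2 FPKM in the same order. The 5 fibroblast markers summed to 42.6 to 44.8 FPKM after siSIRT6, 16 to 18.1 FPKM after siKDM5C and 16 to 17 FPKM in control, nearly all of it COL1A1, with DCN at most 0.00809 FPKM. All 4 endothelial markers, the 3 acinar markers and the 1 islet marker with values were below 1 FPKM in every library. Their part in the results was not tested.

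The member for arachidonic acid release and both cyclooxygenases had few reads. PLA2G4A, the cytosolic phospholipase A2 that releases arachidonic acid, was at 0.141, 0.162 and 0.116 FPKM after siSIRT6, at 0.0182, 0.0376 and 0.0597 FPKM after siKDM5C, and at 0.115, 0.0182 and 0.0186 FPKM in control replicates 1, 2 and 3. The siSIRT6 libraries lay above all others, but control replicate 1 nearly reached the lowest of them. These values rest on 26 reads over the 3 siSIRT6 libraries, 7 over the siKDM5C libraries and 8 over the controls. PTGS1, the constitutive cyclooxygenase, had 5, 1 and 2 reads after siSIRT6, 2, 3 and 8 after siKDM5C and 4, 3 and 4 in control, and the groups overlapped. PTGS2 (ENSG00000073756, chromosome 1, 186671791 to 186680427, GRCh38), the cyclooxygenase induced by growth factors and cytokines, had 7, 11 and 12 reads after siSIRT6, 7, 4 and 6 after siKDM5C and 2, 2 and 5 in control. As pooled FPKM with exact 95% Poisson intervals, which cover counting error only, PTGS2 stood at 0.0831 (0.056 to 0.119) after siSIRT6, at 0.051 (0.0297 to 0.0816) after siKDM5C and at 0.0294 (0.0134 to 0.0557) in control. The siSIRT6 libraries lay above the controls, and the siKDM5C libraries overlapped both other groups. A count of 3 reads corresponds to between 0.0203 and 0.0301 FPKM of PTGS2 in these libraries, so the control values sit near the lower limit of what the depth resolves.

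**Figure D2:**
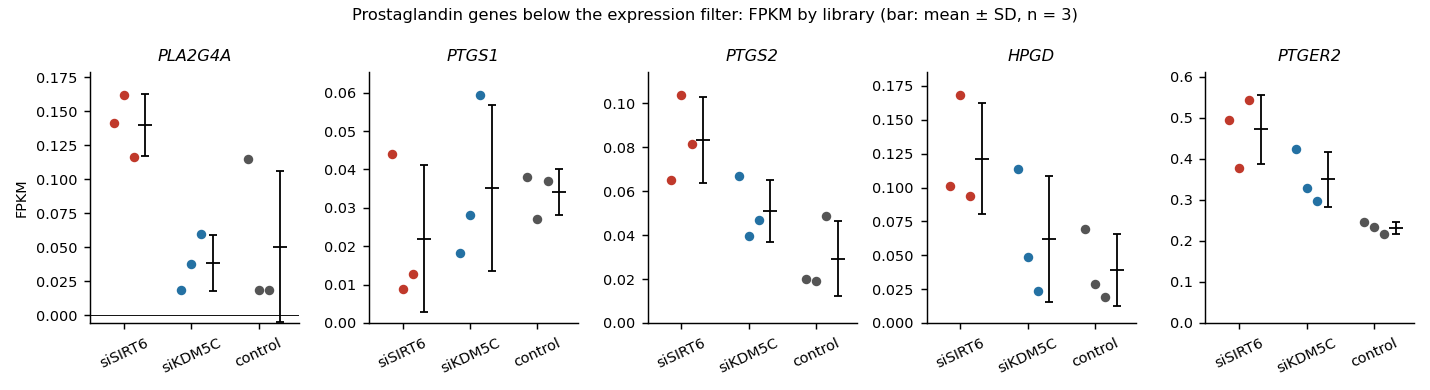
FPKM of PLA2G4A, PTGS1, PTGS2, HPGD and PTGER2 in each library of siSIRT6, siKDM5C and control, each y axis starting at 0 except that of PLA2G4A, where the SD bar of control reaches below 0, with points for libraries and black bars for the mean ± SD (n = 3). The highest value of any of the 5 genes is 0.543 FPKM (PTGER2, siSIRT6 replicate 3), and PTGS1 shows no separation between groups.

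PTGES is a small membrane enzyme that uses glutathione and is usually induced together with PTGS2. The gene (ENSG00000148344, chromosome 9, 129738331 to 129753047) was at 3.36, 3.26 and 3.83 FPKM in siSIRT6 replicates 1, 2 and 3, at 1.16, 1.17 and 1.32 FPKM after siKDM5C, and at 13.6, 12.5 and 12.4 FPKM in control. The 3 groups did not overlap, with siKDM5C lowest, siSIRT6 between, and control highest, and the ranges within a group were narrow beside the gaps between groups. The mean difference of log2(FPKM + 1) was -1.63 (SE 0.07) for siSIRT6 against control and -2.64 (SE 0.07) for siKDM5C against control, and siSIRT6 exceeded siKDM5C by 1.01 (SE 0.07). The added 1 FPKM shortens these differences at low levels: with 0.1 FPKM added they were -1.85 and -3.29, and from the recovered reads (439 after siSIRT6, 141 after siKDM5C and 1356 in control) they were -1.87 and -3.38.

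PTGES2 encodes a PGE2 synthase that is cut from the membrane to a soluble form. PTGES2 (ENSG00000148334, chromosome 9, 128120693 to 128128462) was at 6.8, 7.05 and 7.05 FPKM after siSIRT6, at 4.16, 4.4 and 4.56 FPKM after siKDM5C and at 9.27, 9.48 and 9.21 FPKM in control. As for PTGES, the groups did not overlap and ran siKDM5C, siSIRT6, control in rising order. The differences were -0.37 (SE 0.05) for siSIRT6 and -0.94 (SE 0.05) for siKDM5C against control. For PTGES2 the length nearest to annotation at which all 9 values became whole reads was 6084 bases, while its exons in GENCODE release 29 cover 3039, so its level beside other genes depends on a length that is uncertain, and the differences between groups do not. SLC25A25-AS1, a noncoding gene 2000 bases downstream, fell to 1.06 ± 0.188 FPKM after siSIRT6 (adjusted p = 0.01), was at 1.28 ± 0.108 FPKM after siKDM5C, which did not pass (adjusted p = 0.0941), and was at 1.59 ± 0.0985 FPKM in control. The antisense neighbour of PTGES2, PTGES2-AS1, lies 67 bases away and had 0.0748 ± 0.0228 FPKM after siSIRT6, 0.24 ± 0.133 FPKM after siKDM5C and 0.137 ± 0.0319 FPKM in control.

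PTGES3 encodes a cytosolic protein better known as p23, a co-chaperone of HSP90 that also has PGE2 synthase activity. PTGES3 (ENSG00000110958, chromosome 12) was at 94.7, 96.2 and 95.7 FPKM after siSIRT6, at 102, 110 and 93.4 FPKM after siKDM5C, and at 97.2, 96.4 and 88.3 FPKM in control. All 3 groups overlapped. The differences were 0.03 (SE 0.07) for siSIRT6 and 0.12 (SE 0.07) for siKDM5C. PTGES3 has processed pseudogenes that resemble its mRNA, and 1 of them, PTGES3P1 on chromosome 1, was listed at 23.9 ± 2.08, 24.4 ± 5.12 and 22.5 ± 2.35 FPKM in siSIRT6, siKDM5C and control (SD, n = 3 each), so reads could be split between them and the PTGES3 level is uncertain to that degree. RN7SL809P, a small RNA gene of 297 bases within PTGES3 on the same strand, had 5, 0 and 0 reads after siSIRT6, 6, 3 and 5 after siKDM5C and 7, 5 and 6 in control.

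Because PTGES and PTGES2 were lower while PTGES3 was close to control, the composition of synthase transcripts differed between groups. PTGES made up 3.2%, 3.06% and 3.59% of the summed FPKM of the 3 synthase genes in siSIRT6 libraries, 1.08%, 1.01% and 1.33% in siKDM5C libraries, and 11.3%, 10.5% and 11.3% in controls. PTGES3 took 90.1% ± 0.303 of the sum after siSIRT6, 94.8% ± 0.61 after siKDM5C and 80.9% ± 0.562 in control (SD, n = 3 each). The ratio of PTGES to PTGES2 was 0.5 ± 0.0407 after siSIRT6, 0.278 ± 0.0113 after siKDM5C and 1.38 ± 0.0792 in control. With PTGES2 taken at its annotated 3039 bases, a setting chosen after seeing the data, the ratio was 0.25 ± 0.0203 after siSIRT6, 0.139 ± 0.00562 after siKDM5C and 0.688 ± 0.0395 in control, so which of the pair is higher in control depends on that length. At that length PTGES3 took 84.6% ± 0.319, 91.1% ± 0.974 and 74.9% ± 0.686 of the sum in the same order, and PTGES took 3.08% ± 0.259, 1.09% ± 0.155 and 10.2% ± 0.408.

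**Figure D3:**
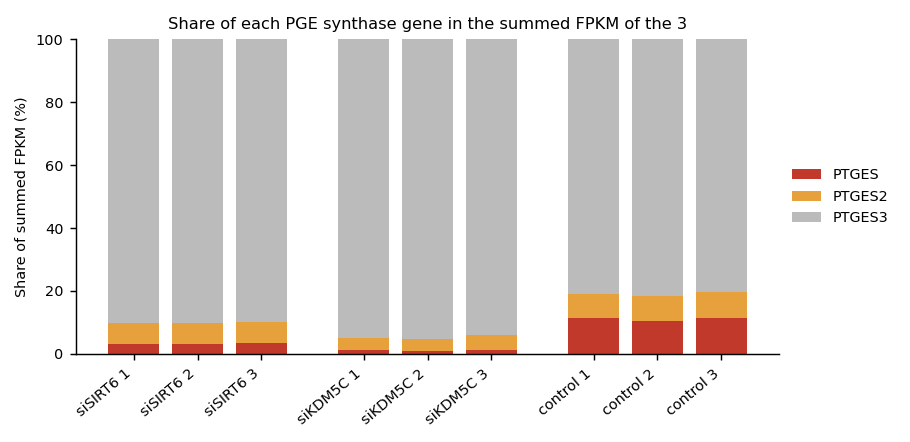
Share (%) of PTGES, PTGES2 and PTGES3 in their summed FPKM, 1 stacked bar per library, with siSIRT6 and siKDM5C left of control. The PTGES share is between 10.5% and 11.3% in control libraries and at most 3.59% in any knockdown library.

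The breakdown genes are HPGD and PTGR1. HPGD, the NAD-dependent dehydrogenase that starts PGE2 inactivation and is silenced in many gut tumours, had 11, 18 and 14 reads after siSIRT6, 12, 5 and 3 after siKDM5C and 7, 3 and 2 in control. The siSIRT6 libraries were above the controls and siKDM5C overlapped both. The corresponding means were 0.121 ± 0.0411 FPKM after siSIRT6, 0.0619 ± 0.0466 FPKM after siKDM5C and 0.0391 ± 0.0267 FPKM in control. PTGR1 reduces the oxidised prostaglandin and also inactivates leukotriene B4. It was at 11.8, 11.4 and 12.2 FPKM after siSIRT6, at 12.5, 11.2 and 10.7 FPKM after siKDM5C and at 10, 10.3 and 11.2 FPKM in control. The siSIRT6 libraries were just above the controls, and siKDM5C overlapped both groups. The differences were 0.16 (SE 0.07) for siSIRT6 and 0.11 (SE 0.07) for siKDM5C. ZNF483, a zinc finger gene that overlaps PTGR1 on the opposite strand, had 0.236 ± 0.0223 FPKM after siSIRT6, 0.27 ± 0.102 FPKM after siKDM5C and 0.411 ± 0.0569 FPKM in control. The other 3 annotated neighbours of members, next to PTGR1 and HPGD, had at most 3 reads summed over any group.

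The receptor genes were higher after both knockdowns. EP2 and EP4 both couple to the stimulatory G protein and raise cyclic AMP. PTGER4 (ENSG00000171522, chromosome 5, 40679498 to 40693735) was at 15.4, 16.1 and 16 FPKM after siSIRT6, at 11.9, 13 and 12.6 FPKM after siKDM5C and at 9.04, 8.08 and 7.6 FPKM in control. The groups did not overlap, and siSIRT6 was highest. The differences were 0.87 (SE 0.07) for siSIRT6 and 0.55 (SE 0.07) for siKDM5C, and siSIRT6 exceeded siKDM5C by 0.32 (SE 0.07). PTGER4 lies within TTC33, which is on the opposite strand and encodes a repeat protein. TTC33 was listed at 1.56 ± 0.105 FPKM after siSIRT6, 1.67 ± 0.212 FPKM after siKDM5C and 0.768 ± 0.0186 FPKM in control (adjusted p = 0.000529 and 0.000302). The sources used here do not say whether counting used strand, so reads of the pair cannot be told apart where they overlap. PTGER2 was at 0.495, 0.378 and 0.543 FPKM after siSIRT6, at 0.425, 0.329 and 0.296 FPKM after siKDM5C and at 0.245, 0.234 and 0.217 FPKM in control, from 78, 52 and 32 reads over the 3 libraries of each group. Both knockdown groups of PTGER2 lay above the controls and overlapped each other.

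PTGES3 was the most abundant member in every library. Of PTGES, PTGR1 and PTGER4, the order after siSIRT6 was PTGER4 (15.8 ± 0.384 FPKM), PTGR1 (11.8 ± 0.388) and PTGES (3.48 ± 0.306), without overlap between libraries. After siKDM5C it was PTGER4 (12.5 ± 0.568 FPKM), PTGR1 (11.5 ± 0.924) and PTGES (1.22 ± 0.087), and PTGER4 and PTGR1 overlapped. In control it was PTGES (12.8 ± 0.667 FPKM), PTGR1 (10.5 ± 0.588) and PTGER4 (8.24 ± 0.731), without overlap. PTGES2 has no settled place in these orders: as deposited it averaged 6.97, 4.37 and 9.32 FPKM after siSIRT6, after siKDM5C and in control, and at its annotated length it averaged 13.9 ± 0.29, 8.75 ± 0.408 and 18.7 ± 0.281 FPKM.

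Of the 10 members, 5 had at least 1 FPKM in at least 3 libraries and entered the fit across genes. In siSIRT6 against control, 3 of the 5 passed the adjusted threshold of 0.05 (2 lower, 1 higher), where 50.8% of all 16135 genes passed. In siKDM5C against control the same 3 genes, PTGES, PTGES2 and PTGER4, passed with the same signs, where 51.5% of all genes passed, and the 2 comparisons share their control libraries. In siSIRT6 against siKDM5C the same 3 were higher after siSIRT6, where 39.9% of all genes passed. Since the list was made with these values known, nothing is read from these counts. The median difference of the 5 was 0.03 in the siSIRT6 comparison and 0.11 in the siKDM5C comparison, beside medians of -0.05 and -0.02 over all genes tested. Libraries did not overlap for 4 of the 5 tested members in siSIRT6 against control and for 3 of the 5 in siKDM5C against control, beside 65.5% and 55.7% of all genes tested. Of the 5 members with too few reads to be tested, 4 and 1 did not overlap in the same comparisons. The share over all untested genes was not computed, so nothing is read from these counts either.

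By position, 4 of the 10 genes lie on chromosome 9, PTGR1, PTGS1, PTGES2 and PTGES in order along it, with PTGES2 and PTGES 1.61 megabases apart. PTGS2 and PLA2G4A are neighbours on chromosome 1, 148.5 kilobases apart. The patterns nearest to PTGES over the 9 libraries, by root mean square difference of log2(FPKM + 1) from the control mean among protein-coding genes, were TNFAIP2 (0.196), CCL20 (0.25), CA8 (0.252) and ICAM1 (0.258). TNFAIP2 averaged 109 ± 3.66 FPKM after siSIRT6, 45.6 ± 4.1 FPKM after siKDM5C and 275 ± 6.67 FPKM in control. For PTGES2 the nearest were PLAGL2 (0.0459), TMEM97 (0.0572), CRISPLD2 (0.063) and BCAM (0.0687), with PLAGL2 at 16.7 ± 0.761 FPKM after siSIRT6, 10.4 ± 0.678 FPKM after siKDM5C and 21.5 ± 0.724 FPKM in control.

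Around the members, 10 further lists of 127 genes covered the supply of arachidonic acid, the other eicosanoid branches, and proteins known to act on PTGS2, PTGES or PTGES3. Of these 127 genes, 81 were tested. After siSIRT6, 22 rose, 29 fell and 30 did not pass. After siKDM5C, 21 rose, 33 fell and 27 did not pass. These are 63% and 66.7% of the tested list genes, beside 50.8% and 51.5% of all genes, with medians of -0.06 and -0.13, beside -0.05 and -0.02. The lists were chosen with earlier results of these data known, so nothing is read from these shares or from the counts per list below. For 9 of the 127 no value was found in the files used. Adjusted p-values given here are Benjamini-Hochberg values of limma over all 16135 genes.

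**Figure D4:**
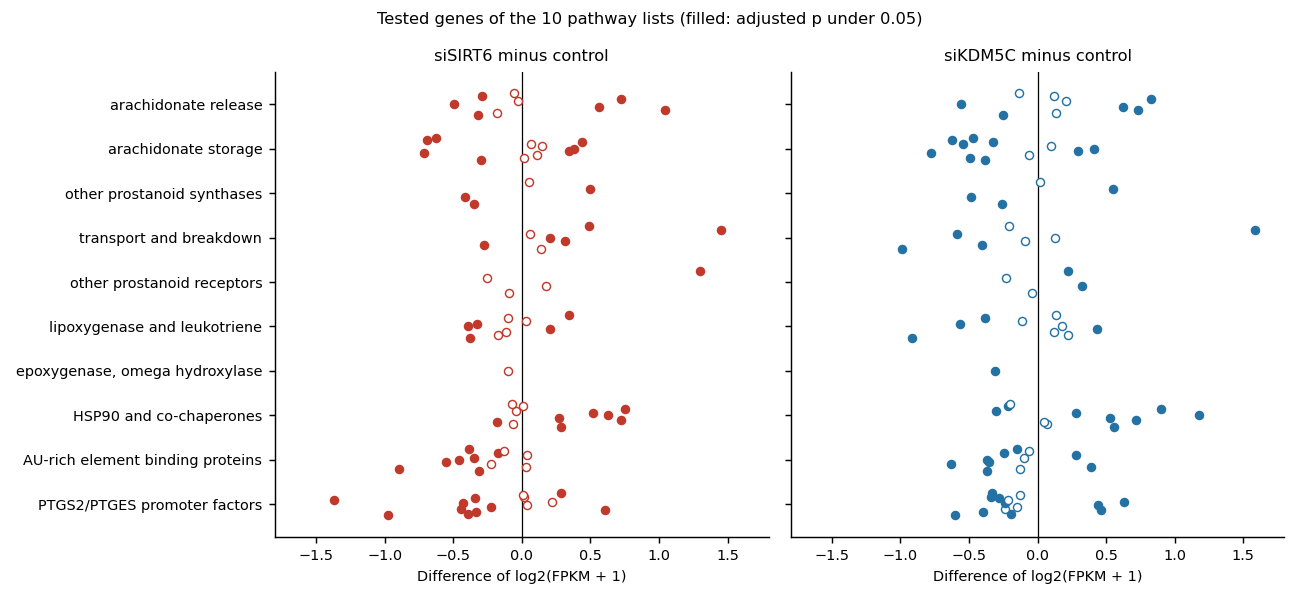
Difference of log2(FPKM + 1) from control for each tested gene of the 10 lists (rows), after siSIRT6 on the left and siKDM5C on the right, with filled points for adjusted p under 0.05. Among the widest are VAT1 (1.45 and 1.59) in the transport and breakdown row and EGR1 (-1.37 and -0.22) in the promoter factor row.

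In the list of arachidonic acid release, 9 of 18 genes were tested, and 3 rose, 3 fell and 3 did not pass after siSIRT6, against 3, 2 and 4 after siKDM5C. The secreted phospholipase PLA2G12A averaged 4.63 ± 0.358 FPKM after siSIRT6, 3.56 ± 0.518 FPKM after siKDM5C and 1.74 ± 0.191 FPKM in control (log2 differences 1.04 and 0.73, SE 0.10, adjusted p = 4.64e-05 and 0.000317). MGLL, a lipase that frees arachidonic acid from an endocannabinoid, rose to 1.79 ± 0.124 FPKM after siSIRT6 and 2.02 ± 0.302 FPKM after siKDM5C, against 0.696 ± 0.118 FPKM in control (adjusted p = 0.000301 and 0.000136). DAGLA, a diacylglycerol lipase, fell to 1.61 ± 0.131 and 1.5 ± 0.0807 FPKM, against 2.68 ± 0.121 FPKM in control. The lysosomal phospholipase PLA2G15 rose in both, to 5.45 ± 0.382 FPKM after siSIRT6 and 5.77 ± 0.831 FPKM after siKDM5C, against 3.37 ± 0.367 FPKM in control.

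Of the genes that make and store arachidonic acid, 3 of 11 tested differed between the knockdowns, where 39.9% of all genes did. The 3 were FADS1 and FADS2, neighbouring desaturase genes on chromosome 11, and ACSL3, an acyl-CoA synthetase. ACSL3, named to complete this count, was at 13 ± 0.182 FPKM after siSIRT6, 8.88 ± 0.977 FPKM after siKDM5C and 12.9 ± 0.638 FPKM in control (siSIRT6 minus siKDM5C 0.51, adjusted p = 0.000888). FADS2 rose to 46.9 ± 1.07 FPKM after siSIRT6 and fell to 27.1 ± 1.38 FPKM after siKDM5C, against 34.2 ± 0.439 FPKM in control (adjusted p = 0.000143 and 0.000755), and siSIRT6 against siKDM5C differed by 0.77 (adjusted p = 1.51e-05). FADS1 was at 30.5 ± 0.327 FPKM after siSIRT6, which did not pass (adjusted p = 0.172), fell to 19.6 ± 0.128 FPKM after siKDM5C, and was at 29.1 ± 0.428 FPKM in control. FADS1 and FADS2 overlap on opposite strands, so their reads may be shared in part. ELOVL5, an elongase of polyunsaturated fatty acids, fell in both to 57.4 ± 0.96 and 64.2 ± 7.25 FPKM, against 89.2 ± 4.84 FPKM in control, and the acyl-CoA synthetase ACSL5 fell in both as well, to 0.838 ± 0.0909 and 0.759 ± 0.0484 FPKM, against 2.01 ± 0.159 FPKM. Over the list, 11 of 12 genes were tested, and 3 rose, 4 fell and 4 did not pass after siSIRT6, against 2, 7 and 2 after siKDM5C.

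Of the other prostanoid synthases, 4 of 9 were tested, and in each knockdown 1 rose, 2 fell and 1 did not pass. CBR1, a carbonyl reductase that can turn PGE2 into PGF2 alpha, rose to 10.1 ± 0.0966 FPKM after siSIRT6 and 10.6 ± 0.915 FPKM after siKDM5C, against 6.89 ± 0.465 FPKM in control (adjusted p = 0.000465 and 0.000266). AKR1B1, an aldose reductase with PGF synthase activity, fell to 19.1 ± 0.594 and 18.3 ± 2.72 FPKM, against 25.9 ± 2.23 FPKM (adjusted p = 0.0107 and 0.00481). PRXL2B fell to 1.94 ± 0.249 and 2.12 ± 0.205 FPKM, against 2.73 ± 0.271 FPKM, though its siKDM5C call (adjusted p = 0.0349) was lost in 7 of 15 alternatives (0.0254 to 0.115 over all of them), among them without control replicate 1 (0.0882) or 2 (0.115) and without siKDM5C replicate 2 (0.0759) or 3 (0.0959). CBR3 was the gene that did not pass, at 1.8 ± 0.202 FPKM after siSIRT6, 1.73 ± 0.337 FPKM after siKDM5C and 1.7 ± 0.267 FPKM in control. The prostacyclin synthase PTGIS, the thromboxane synthase TBXAS1 and the PGD2 synthase PTGDS had means of at most 0.492 FPKM in any group.

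PGE2 leaves cells partly through the ABC transporter ABCC4. ABCC4 was at 9.65 ± 0.0646 FPKM after siSIRT6, which did not pass (adjusted p = 0.137), and fell to 3.88 ± 0.385 FPKM after siKDM5C (log2 difference -0.99, SE 0.07, adjusted p = 1.42e-05), against 8.67 ± 0.667 FPKM in control. The knockdowns themselves differed at ABCC4 by 1.13 (siSIRT6 minus siKDM5C, adjusted p = 1.51e-05). SLCO2A1, the uptake carrier of prostaglandins, had means of at most 0.133 FPKM, while its relative SLCO3A1 fell to 6.9 ± 0.163 and 6.24 ± 0.369 FPKM, against 8.6 ± 0.482 FPKM in control. VAT1, a membrane protein from the same reductase superfamily as PTGR1, rose to 79.3 ± 1.27 FPKM after siSIRT6 and 87.2 ± 5.68 FPKM after siKDM5C, against 28.4 ± 1.87 FPKM in control (adjusted p = 1.15e-06 and 7.56e-07). CRYZ, a quinone reductase of that superfamily, was at 11.4 ± 0.216 FPKM after siSIRT6, fell to 6.94 ± 0.527 FPKM after siKDM5C, and was at 10.9 ± 0.11 FPKM in control. Over this list 7 of 8 genes were tested, and 4 rose, 1 fell and 2 did not pass after siSIRT6, against 1, 3 and 3 after siKDM5C.

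Among other receptors, 4 of 9 were tested. PPARG, a nuclear receptor for some prostaglandin products, rose to 10.2 ± 0.364 FPKM after siSIRT6 and 4.3 ± 0.124 FPKM after siKDM5C, against 3.55 ± 0.0328 FPKM in control (log2 differences 1.3 and 0.22, SE 0.05, adjusted p = 4.42e-07 and 0.0044). PTGDR2, a PGD2 receptor, rose after siKDM5C to 1.78 ± 0.231 FPKM, against 1.23 ± 0.17 FPKM in control (adjusted p = 0.025), a call lost in 4 of 15 alternatives (0.0142 to 0.0869 over all of them): with no filter on low values (0.0596), when leaving out control replicate 1 (0.0869), siKDM5C replicate 1 (0.0714) or siKDM5C replicate 3 (0.075). PTGER1, the EP1 receptor, was at 1.57 ± 0.143 FPKM after siSIRT6, 1.68 ± 0.218 FPKM after siKDM5C and 1.76 ± 0.377 FPKM in control, and did not pass. The thromboxane receptor TBXA2R, at 2.12 ± 0.482, 2.15 ± 0.371 and 2.71 ± 0.415 FPKM in the same order, did not pass either. The EP3 receptor PTGER3 had means of at most 0.00839 FPKM, so EP4 was the most abundant EP receptor transcript in every group.

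The lipoxygenase and leukotriene list had 9 of 21 genes tested, with 2 rises, 3 falls and 4 not passed after siSIRT6, and 1, 3 and 5 after siKDM5C. ALOX5AP, which presents arachidonic acid to the lipoxygenase ALOX5 and belongs to the same membrane protein family as PTGES, fell to 1.28 ± 0.098 FPKM after siSIRT6 and 0.577 ± 0.142 FPKM after siKDM5C, against 1.97 ± 0.176 FPKM in control (adjusted p = 0.00704 and 6.03e-05). ALOX5 itself had means of at most 0.00491 FPKM. LTA4H, the leukotriene B4-forming hydrolase, rose to 11.7 ± 0.428 and 13.8 ± 0.938 FPKM, against 9.97 ± 0.326 FPKM, though its siSIRT6 call (adjusted p = 0.0181) was lost in 2 of 16 alternatives (0.00711 to 0.0716 over all of them), without control replicate 3 (0.0568) or siSIRT6 replicate 2 (0.0716). GGT5, a transferase that acts on leukotriene C4, fell to 1.43 ± 0.0276 and 1.07 ± 0.215 FPKM, against 2.06 ± 0.15 FPKM. MGST3, another member of the PTGES family, rose after siSIRT6 to 6.2 ± 0.0535 FPKM, was at 5.23 ± 0.195 FPKM after siKDM5C, which did not pass, and was at 4.68 ± 0.366 FPKM in control. Of 11 epoxygenase and hydroxylase genes only EPHX1, an epoxide hydrolase, was tested, and it fell after siKDM5C to 10 ± 0.958 FPKM, against 12.7 ± 0.28 FPKM in control (adjusted p = 0.00463).

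PTGES3 works with HSP90. Of 11 tested genes of HSP90 and its co-chaperones, 6 rose, 1 fell and 4 did not pass after siSIRT6, and 6 rose, 2 fell and 3 did not pass after siKDM5C, where 50.8% and 51.5% of all genes passed. The most abundant of them, HSP90AB1, did not pass in either knockdown, at 565 ± 8.34 FPKM after siSIRT6, 620 ± 17.9 FPKM after siKDM5C and 591 ± 20.5 FPKM in control. STIP1 was the gene that fell after siSIRT6, and PPID and DNAJC7 fell after siKDM5C, these 4 being named after their values were seen. FKBP4, a co-chaperone of steroid receptor complexes, rose to 18.6 ± 0.813 FPKM after siSIRT6 and 27.6 ± 1.32 FPKM after siKDM5C, against 11.7 ± 0.331 FPKM in control (adjusted p = 3.3e-05 and 1.2e-06). AHSA1, which activates the HSP90 ATPase, rose to 30.3 ± 0.915 and 30.2 ± 1.13 FPKM, against 18 ± 0.582 FPKM, and NUDC, a p23-like protein, rose to 56 ± 0.371 and 62.2 ± 5.43 FPKM, against 32.8 ± 1.84 FPKM. HSP90AA1, the inducible HSP90, rose to 118 ± 1.16 and 144 ± 14.2 FPKM, against 96.7 ± 1.14 FPKM.

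PTGS2 mRNA is known to be short-lived through AU-rich elements. Of 11 tested genes of proteins that bind such elements, 0 rose, 7 fell and 4 did not pass after siSIRT6. After siKDM5C, 2 rose, 6 fell and 3 did not pass (medians -0.31 after siSIRT6 and -0.15 after siKDM5C). Of all genes tested, 23.9% rose and 26.9% fell after siSIRT6, and 25.6% rose and 25.9% fell after siKDM5C. ZFP36, which speeds the decay of such mRNAs, fell to 156 ± 2.72 FPKM after siSIRT6, was at 266 ± 10.7 FPKM after siKDM5C, which did not pass (adjusted p = 0.0988), and was at 291 ± 17.5 FPKM in control (siSIRT6 adjusted p = 7.36e-06). TIAL1 fell in both, to 12.8 ± 0.435 and 13.8 ± 0.901 FPKM, against 18 ± 0.314 FPKM in control. HNRNPA2B1 fell to 70.5 ± 1.38 FPKM after siSIRT6 and 83.1 ± 5.15 FPKM after siKDM5C, against 92.2 ± 0.559 FPKM in control. Its siKDM5C call (adjusted p = 0.0439) was lost in 11 of 16 alternatives (0.022 to 0.119 over all of them), among them leaving out any single library other than siKDM5C replicate 1 (0.0524 to 0.108). ZFP36L1 rose after siKDM5C to 25.7 ± 1.34 FPKM, was at 19.7 ± 0.629 FPKM after siSIRT6, which did not pass, and was at 19.3 ± 0.585 FPKM in control. Whether any gene of this list bears on the PTGS2 level was not tested.

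Of 14 tested genes of transcription factors known from work on the PTGS2 and PTGES promoters, 2 rose, 8 fell and 4 did not pass after siSIRT6. After siKDM5C, 3 rose, 7 fell and 4 did not pass. Of all genes, 50.8% passed after siSIRT6 and 51.5% after siKDM5C. EGR1, an immediate early factor known to bind GC-rich sites such as the one printed above for PTGES, was at 1.18, 1.4 and 1.33 FPKM after siSIRT6, at 4.76, 3.52 and 4.15 FPKM after siKDM5C and at 4.9, 4.41 and 5.57 FPKM in control. EGR1 fell after siSIRT6 (log2 difference -1.37, SE 0.10, adjusted p = 1.58e-05). After siKDM5C its libraries overlapped the controls and it did not pass (-0.22, adjusted p = 0.112). Of 15 alternatives (0.0422 to 0.306 over all of them) it passed in 1, without siKDM5C replicate 1 (-0.3, adjusted p = 0.0422). NFKB1, a subunit of NF-kB, fell to 5.45 ± 0.207 FPKM after siSIRT6 and 7.35 ± 0.132 FPKM after siKDM5C, against 11.7 ± 0.32 FPKM in control (adjusted p = 1.59e-06 and 1.91e-05). USF1 fell in both, to 13.4 ± 0.395 and 15.5 ± 0.862 FPKM, against 18.4 ± 0.898 FPKM. USF2 was at 21.2 ± 0.238 FPKM after siSIRT6, which did not pass, and rose to 28.7 ± 2.55 FPKM after siKDM5C, against 18.2 ± 1.91 FPKM in control. Its siSIRT6 difference (adjusted p = 0.0574) passed in 6 of 16 alternatives (0.0138 to 0.177 over all of them), among them without control replicate 3 (0.0138) and without siKDM5C replicate 1 (0.042) or 2 (0.0428). SP1, which binds GC boxes and was named after its values were seen, fell in both, to 13 ± 0.424 and 13.6 ± 0.647 FPKM, against 16.8 ± 0.797 FPKM. Whether any of these factors bears on the PTGES or PTGER4 level was not tested.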

How the data were processed

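RNA-seq values of 9 PANC-1 libraries were used, 3 per group, grouped by their titles. The authors deposited FPKM, 1 value per Ensembl identifier and library with no pooling, and per the labels' protocols Trizol RNA went into a stranded mRNA kit. Trimmomatic, HISAT2, Cufflinks, HTSeq and hg38 are named without versions or roles, per the submitters' processing notes. The sources used here give neither the annotation nor the strand setting of the counting. Symbols were taken from a gene name table and GENCODE release 29, which gave coordinates.

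Reads were recovered by finding, per gene, a length at which all FPKM are whole reads (tolerance 0.01 of a read). The annotated exon length did this for 58.9% of genes. For the others the nearest length that did was taken, so their being whole is by construction (100% of values). These reads gave depth and counting intervals. The filter kept genes reaching 1 FPKM in 3 or more libraries. On log2(FPKM + 1), 1 limma fit (version 3.58.1, R 4.3.3) of all 9 libraries had a term per group and a trended empirical Bayes spread, two-sided, with Benjamini-Hochberg adjustment over 16135 genes and a threshold of 0.05. The added 1 shrinks differences of low genes. The fit was also run on simulated counts with the same spread in every group and few changed genes. Unlike these libraries, that run had no unequal spread, so it does not show how the fit behaves under it. Members and lists were chosen with earlier results of these data known. Named genes were all members, both targets, annotated genes within 5 kilobases of a member, up to 4 tested genes per list with the smallest adjusted p in either knockdown, and the 4 nearest patterns to the 2 tested members with the largest log2 difference. Alternatives were another pseudocount, other filters, median-of-ratios scaling, only the groups compared, replicate number as a block, limma-voom on recovered reads, and leaving out each library. PTGES2 at its annotated exon length was added after seeing the data.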

Additional observations from a re-analysis of the deposited data

How the results depend on the processing

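The signs of PTGES, PTGES2 and PTGER4 against control were the same in every alternative run. The PTGES difference ranged from -1.87 to -1.59 after siSIRT6 and from -3.38 to -2.6 after siKDM5C, PTGES2 from -0.42 to -0.34 and from -1.09 to -0.91, and PTGER4 from 0.82 to 0.94 and from 0.5 to 0.61. PTGES3 after siSIRT6 changed sign around 0 (-0.02 to 0.07). Requiring at least 5 FPKM lowered the genes called to 5367 after siSIRT6 and 5418 after siKDM5C, because fewer genes were tested, against 8194 and 8308. Leaving out 1 library gave 6768 to 8787 genes after siSIRT6, 6977 to 8401 after siKDM5C and 4883 to 6945 between the knockdowns (6442 with all), and list genes called of 47 to 52, 47 to 54 and 27 to 41 (51, 54 and 39 with all). limma-voom on the recovered reads called 8555, 8502 and 6954 genes. The main fit shares 1 spread over all groups, although replicate noise differed between them. It was measured as the mean squared deviation between paired replicates, divided by the variance expected from counting alone. This ratio of variances was 2.02 to 3.36 between siSIRT6 replicates, 13.7 to 19.6 between siKDM5C replicates and 2.67 to 12.7 between controls. With only the groups compared in the fit, 9180, 7065 and 5742 genes were called. With replicate number as a block, 8130, 8245 and 6386 genes and 50, 55 and 38 list genes were called. Deviations of same-numbered libraries correlated from -0.229 to 0.252, and those of differently numbered libraries from -0.353 to 0.426. With 3 libraries per group these values cannot settle whether the numbers pair the samples. Of 1740 recalculated values of the named list genes, 50 lost a call and 16 gained one, and none of those called reversed. Depth limits PLA2G4A, PTGS1, PTGS2 and HPGD, where 3 reads correspond to 0.0193 to 0.0573 FPKM. Taking PTGES2 at its annotated exon length, chosen after seeing the data, multiplied its level by 2 in every library and left differences between groups on a ratio scale as they were.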
